A study of Mus musculus with 6 samples.

Results

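The Ugt1a cluster on mouse chromosome 1 holds 7 annotated genes that were described here together: Ugt1a10, Ugt1a9, Ugt1a7c, Ugt1a6b, Ugt1a6a, Ugt1a2 and Ugt1a1, out of 37310 genes of the annotation. The Ugt1a enzymes sit in the endoplasmic reticulum membrane and transfer glucuronic acid from UDP-glucuronic acid to bilirubin, steroids, phenols and drugs, which makes them soluble enough to be excreted. Each gene has its own promoter and its own first exon, which encodes the part that binds the substrate, and this exon is spliced to the same downstream exons, which encode the part that binds UDP-glucuronic acid and the membrane anchor. Ugt1a1 is the bilirubin-conjugating enzyme, and the Ugt1a6 enzymes act mainly on small planar phenols. In the NCBIM37 assembly (mm9) with GENCODE vM1, the cluster spans chr1:89951963-90116577 (165 kb, plus strand), with shared exons numbered 2 to 5.

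DNA methylation was measured by MeDIP-seq, in which sheared DNA fragments carrying 5-methylcytosine are pulled down by an antibody and sequenced, in primary mesangial cells, the contractile cells of the kidney glomerulus. Of 6 samples, 3 were untreated controls and 3 were treated with TGF-β1, a cytokine that drives fibrosis, at 10 ng/ml for 72 h. All 6 were cultured in 25.5 mM glucose with serum and used between passages 3 and 6, so that the controls were also high-glucose cells. The strain and age of the donor mice are not given in the sources used here, the labels do not say whether the samples of a group were separate cultures, and any p-value then covers the spread between these samples only. No expression was analysed here, so the labelled cell type was not checked against marker genes. Depth, as reads used for peak calling, was 9407103 to 11494356 in control and 12634300 to 13291419 in TGF-β1-treated samples, without overlap.

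Peaks with their summit in the cluster or within 10 kb of it (a window of 185 kb) were joined across samples where they shared at least 1 bp. They numbered 42 in all, 7 in each control sample and 6, 7 and 8 in TGF-β1-treated replicates 1, 2 and 3, and formed 10 of the 170444 regions of the series. Group means were 7 ± 0 peaks in control and 7 ± 1 peaks after TGF-β1 (mean ± SD, n = 3). Per 1000000 reads, at depths that did not overlap, they were 0.677 ± 0.0676 and 0.542 ± 0.0664 peaks. Over the whole series, control samples had 81473 to 100449 peaks and TGF-β1-treated samples 100379 to 105520. Those numbers were not scaled to depth, so the lower scaled count is not shown to be particular to the cluster. The cluster was selected on the readout: the region at shared exon 5 had the third smallest p of all regions with higher pileup after TGF-β1, where pileup is the height of a peak, counted in extended reads covering its summit. Every comparison of control with TGF-β1 in the cluster is therefore a description without a test. A peak list leaves out whatever lay below the caller's threshold, so a place without a peak is not a place without methylated fragments.

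Of the 10 regions, 4 had a peak in all 6 samples, which is the case for 24.5% of the regions of the series. These were a region at the boundary of intron 4 and shared exon 5, a region upstream of Ugt1a1, a region between the first exons of Ugt1a6b and Ugt1a6a, and a region between those of Ugt1a5 and Ugt1a2. None of the 4 touched a first exon. The sequence of the region between Ugt1a6b and Ugt1a6a, which had the highest fold enrichment of the 4, is given as 300 bases around the median summit on the plus strand of NCBIM37, with CpG sites, the sites of methylation that the antibody can recover, in capitals.
Between Ugt1a6b and Ugt1a6a, chr1:90015603-90015902: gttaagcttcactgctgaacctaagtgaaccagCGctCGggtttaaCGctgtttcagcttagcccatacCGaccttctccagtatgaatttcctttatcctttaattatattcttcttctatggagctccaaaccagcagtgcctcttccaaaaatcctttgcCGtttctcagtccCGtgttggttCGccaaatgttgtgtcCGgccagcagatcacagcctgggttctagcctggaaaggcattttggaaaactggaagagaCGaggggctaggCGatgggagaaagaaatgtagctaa

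**Figure D1:**
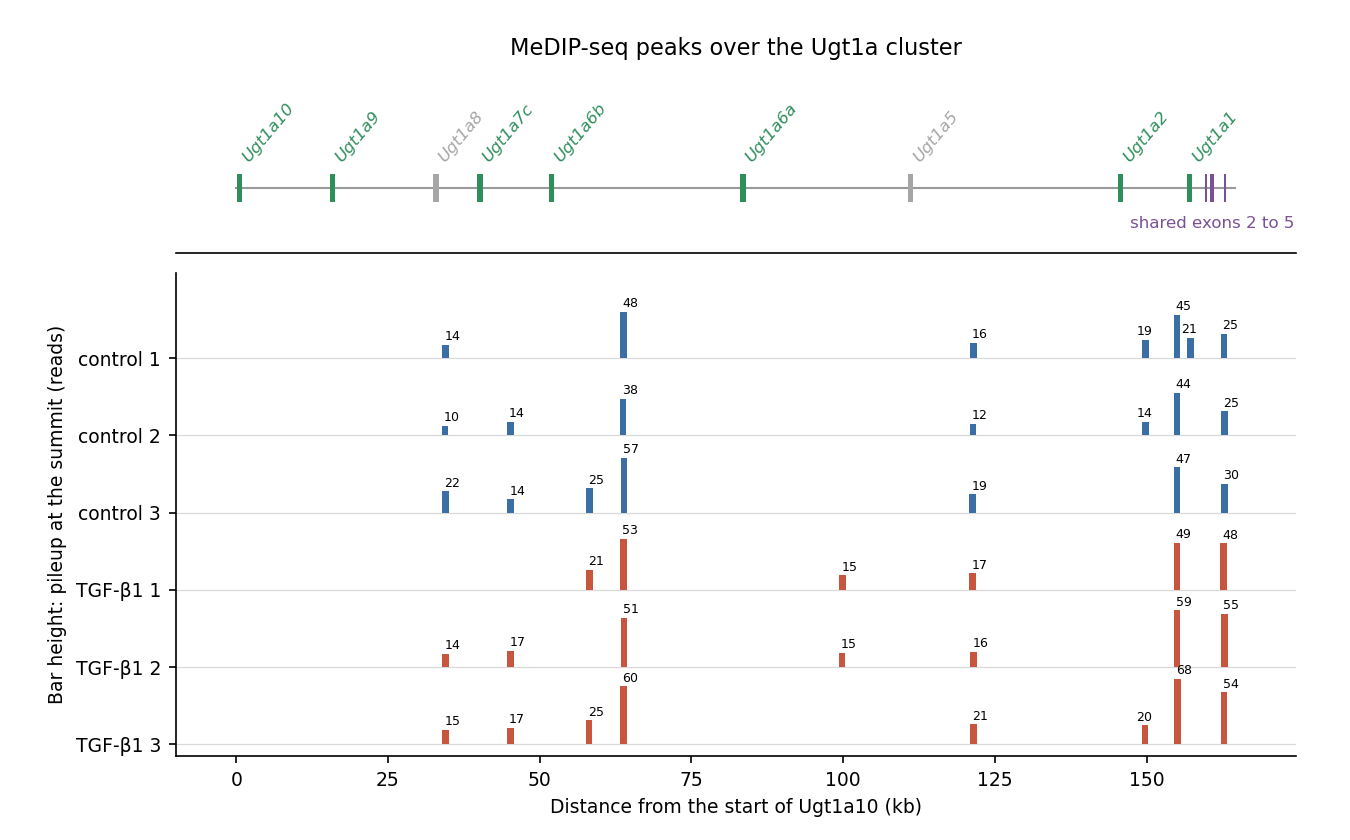
Peaks of the 6 samples along the cluster, with the distance from the start of Ugt1a10 in kb on the x axis and 1 line per sample (blue, control; red, TGF-β1). The bar height and the number above it are the pileup in reads, the exon track shows first exons of the 7 genes in green, of Ugt1a5 and Ugt1a8 in grey and the shared exons, widened to be visible, in purple; the only bar at a first exon stands at Ugt1a1 in control replicate 1 (21 reads).

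The printed window held 10 CpG sites, more than 56.0% of windows of this length around the 41502 regions with peaks in all samples on the assembled chromosomes, where the median was 9. The window at shared exon 5 held 8 sites and that upstream of Ugt1a1 held 7, both below the median.

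The first exons were nearly free of peaks. Their coding parts held 75 CpG sites, of which 0% lay under a peak in 5 of the 6 samples and 8% in control replicate 1. That one peak, at chr1:90109007-90109291, lay in the first exon of Ugt1a1, covered 6 of its 16 CpG sites, had a pileup of 21 reads and a fold enrichment of 4.60, and was the weakest of its sample in the cluster by the second measure. It also overlapped an exon of an antisense transcript on the minus strand, RP23-324B17.1 (chr1:90108544-90109071). For Ugt1a10, Ugt1a9, Ugt1a7c, Ugt1a6b, Ugt1a6a and Ugt1a2 no sample had a peak over the first exon. In the first coding exons of all protein-coding genes, 6.14% of the CpG sites lay under a peak. The share of those exons without any peak was not counted, so an exon without a peak is not shown to be unusual. The nearest region lay 33341 bp from the first exon of Ugt1a10, 17999 bp from that of Ugt1a9, 15763 bp from that of Ugt1a6a, 5570 bp from that of Ugt1a6b, 4445 bp from that of Ugt1a7c and 3481 bp from that of Ugt1a2. The longest stretches without a peak were 35.5 kb around the first exon of Ugt1a6a and the first 34.3 kb of the cluster, with the first exons of Ugt1a10, Ugt1a9 and Ugt1a8.

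Shared exons 2, 3 and 4, with 12 CpG sites together, had no peak in any sample either. Compared within each sample, the share of CpG sites under a peak was 1.33 percentage points lower in these shared exons than in the first exons, a difference that came from control replicate 1 alone and was 0 in the other 5 samples (exact two-sided sign-flip test, p = 1, Benjamini-Hochberg adjusted p = 1). With a difference in 1 sample only, this p can take no other value, and it does not show that the exons are alike. Over all protein-coding genes, 9.53% ± 2.11 (SD, n = 6) of the CpG sites in coding exons and 6.14% ± 1.47 (SD, n = 6) of those in first coding exons lay under a peak. The share in shared exons 2 to 4 was 0 in every sample, so its difference from all coding exons, 9.53 ± 2.11 points (SD) lower in 6 of 6 samples, only restates the share of all coding exons. Its exact two-sided sign-flip p of 0.0313 (adjusted p = 0.0938 over the 3 tests) is the smallest 6 samples allow and would be reached by any exons without a peak, and it does not show whether 12 CpG sites without a peak are unusual. The share in the first exons was lower than that of all first coding exons in 5 of 6 samples, by 4.81 ± 4.58 points (SD, exact two-sided sign-flip test, p = 0.0625, adjusted p = 0.0938), and here too the first-exon share was 0 in those 5 samples. After adjustment none of the 3 differences passed 0.05.

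Shared exon 5 differed from the other shared exons, and was left out of these tests because the region used to select the cluster had to have a peak in every sample. Of its 8 coding CpG sites, 6 lay under a peak in each control sample and in TGF-β1 replicate 1, and all 8 in TGF-β1 replicates 2 and 3. With exon 5 included, 30% to 40% of the shared CpG sites lay under a peak and the difference from the first exons changed sign, to 32.0 points higher. The contrast of first and shared exons thus rested on exon 5, and no test of it with that exon is independent of the selection.

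The CpG density of the coding first exons was 1.25 sites per 100 bp, from 0.71 in Ugt1a9 to 1.84 in Ugt1a1, against 2.73 in shared exons 2 to 4, 2.91 in all coding exons and 3.81 in all first coding exons. By the RefSeq promoter set (GRCm38.p6, 300 bases around each start), 6 of the 7 genes had an entry, with 1 CpG site in Ugt1a10, 2 in Ugt1a9, Ugt1a7c and Ugt1a1, 3 in Ugt1a6a and 4 in Ugt1a2, where the median of 32851 promoters was 7. The pull-down recovers more from DNA with more methylated CpG sites, and the part of this low density in the absence of peaks was not tested.

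Some of the first exons also resemble each other closely, and the authors kept only reads that mapped to 1 place. The beginnings of the coding sequence of 4 first exons are given, each as 60 bases on the plus strand with CpG sites in capitals. Pairs among them ranged from 60 identical positions of 60 (Ugt1a6a and Ugt1a6b) to 19 (Ugt1a6a and Ugt1a1).
Ugt1a6a, chr1:90035049-90035108: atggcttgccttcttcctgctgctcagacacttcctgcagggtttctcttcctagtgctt
Ugt1a6b, chr1:90003517-90003576: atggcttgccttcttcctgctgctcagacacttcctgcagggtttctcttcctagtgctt
Ugt1a10, chr1:89952057-89952116: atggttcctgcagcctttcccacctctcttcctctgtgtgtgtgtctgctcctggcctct
Ugt1a1, chr1:90108577-90108636: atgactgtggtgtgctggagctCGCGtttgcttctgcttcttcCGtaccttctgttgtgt

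Ugt1a6a and Ugt1a6b were identical over these 60 bases and over 97.0% of the aligned first exon, and Ugt1a10 and Ugt1a9 were identical over 91.3%. Ugt1a7c shared 80.8% with Ugt1a10 and 81.1% with Ugt1a9, and each of the remaining pairs shared 55.0% to 58.7%. Of all 50-base sequences of the exon, close to the read length of 49, 51.0% were found once in the genome for Ugt1a6a and the same for Ugt1a6b, 77.7% for Ugt1a10, 91.7% for Ugt1a2, 93.9% for Ugt1a9, 95.0% for Ugt1a7c and 100% for Ugt1a1. The shared exons were unique throughout. The one peak over a first exon lay in that of Ugt1a1, which was fully unique. The part of uniqueness in the absence of peaks was not tested, and for the pair of Ugt1a6 exons the values hold for the stretches that reads could reach. The region at exon 5 was 100% unique, and those between Ugt1a6b and Ugt1a6a, upstream of Ugt1a1 and between Ugt1a5 and Ugt1a2 were 68.7%, 67.3% and 62.1% unique.

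**Figure D2:**
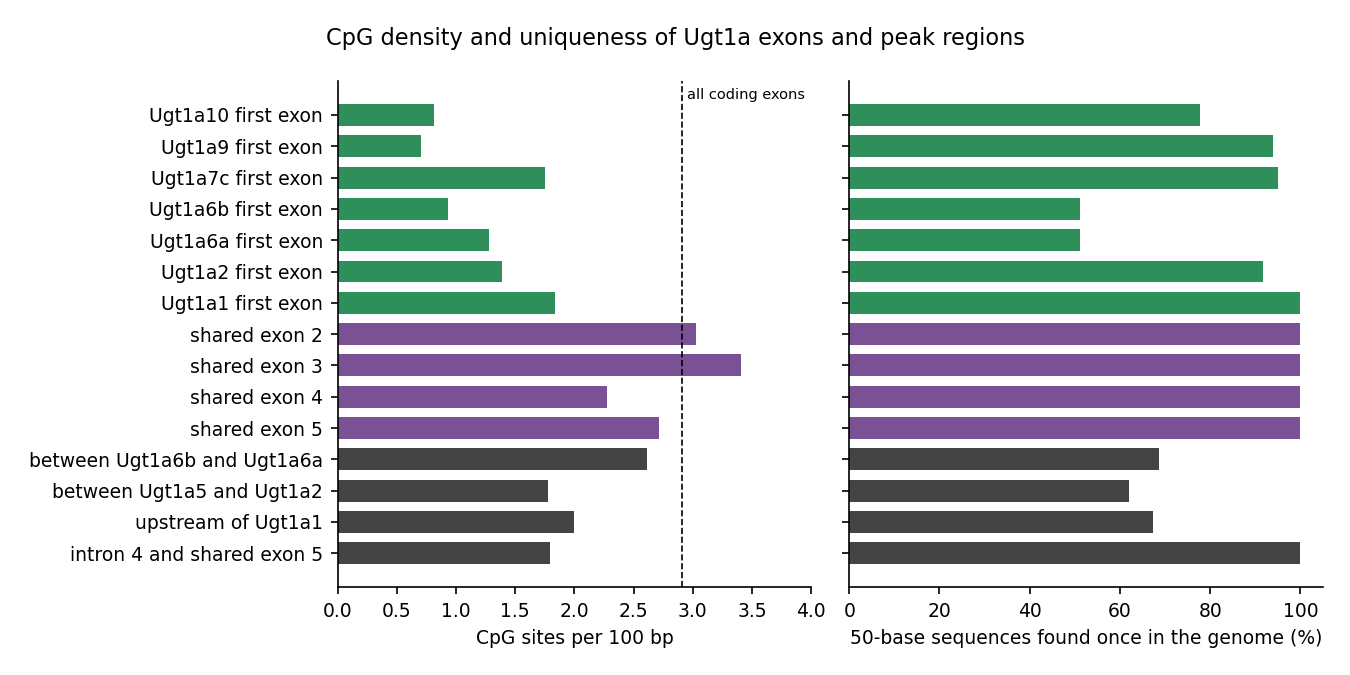
CpG sites per 100 bp (left) and the percentage of 50-base sequences found once in the genome (right) for the coding first exons (green), the coding shared exons (purple) and the 4 regions with a peak in every sample (grey). The dashed line is the density of all coding exons (2.91); all 7 first exons lie to its left, and Ugt1a6b and Ugt1a6a are the least unique.

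The region at shared exon 5, chr1:90114433-90114990, spanned the end of intron 4 and the start of the coding part of the exon (chr1:90114702-90114996). Summits lay from 59 bp before to 74 bp after the exon start. The annotation also places exons of the antisense transcript RP23-324B17.1 here, 1 of them at chr1:90114766-90115159, and a pull-down of double-stranded DNA cannot be assigned to either strand. Pileup was 25, 25 and 30 reads in control replicates 1, 2 and 3, and 48, 55 and 54 reads in the same order after TGF-β1. Every treated sample lay above every control sample, and the mean went from 26.7 ± 2.89 to 52.3 ± 3.79 reads (SD, n = 3), 1.96 times. The log2 fold change, after centring each sample on its median over all regions, was 0.75 ± 0.18 (SE, 3 samples per group), higher than that of 99.97% of the 41744 regions fitted, and 97.0% when fold enrichment, described next, was fitted in place of pileup; these values chose the cluster and are not evidence of their own direction.

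Scaled to depth, the same peaks had 2.42, 2.66 and 2.61 reads per 1000000 reads used by the caller in control and 3.77, 4.35 and 4.06 in TGF-β1-treated samples, a ratio of 1.58, again without overlap. The reads in the 10 kb around the summit, with those of the peak included, were higher too. The caller's local background, which it takes from 10 kb around the summit, corresponded to 11.0, 12.0 and 10.3 reads per 1000000 in control and 15.6, 16.9 and 12.7 in TGF-β1-treated samples, a ratio of 1.36. With the pileup of the peak taken off, these windows held 88 reads in every control and 151, 158 and 115 reads in the treated replicates 1, 2 and 3, or 7.66 to 9.35 against 8.65 to 12.5 per 1000000, where the groups overlapped. The remainder still held reads of the peak that did not cover its summit. Peaks were 343 to 437 bp long in control and 470 to 533 bp in TGF-β1-treated samples, so a change outside the peak is not shown. Fold enrichment, the ratio of pileup to local background, was 6.21, 6.21 and 7.09 in control and 7.32, 7.97 and 9.29 in TGF-β1-treated samples, without overlap. Its ratio was 1.26 and its log2 fold change 0.33 ± 0.17 (SE), less than that of pileup. The gap between the groups in fold enrichment was narrow, 7.09 against 7.32. The shares of all regions apart in fold enrichment or in the 10 kb reads were not counted. In bulk samples, more cells with this stretch methylated and more methylated copies per cell cannot be told apart. In raw pileup, greater depth and the treatment cannot be told apart either.

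**Figure D3:**
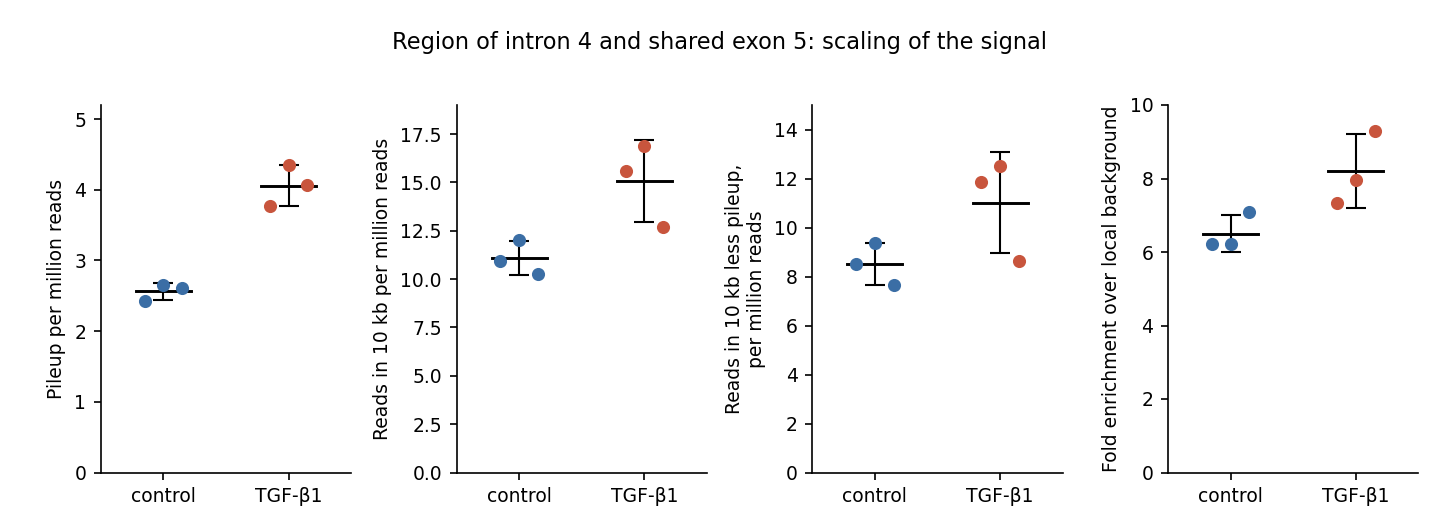
Region of intron 4 and shared exon 5 by group: pileup per 1000000 reads, reads in the 10 kb around the summit per 1000000, the same after subtraction of the pileup, and fold enrichment over the local background. Points are samples, bars the mean ± SD of 3; the groups are separate in every panel but the one after subtraction.

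The region upstream of Ugt1a1, chr1:90106786-90107235, had its median summit 1555 bp before the start of the gene and was the region with a peak in all samples that lay nearest to a first exon. Its pileup was 45, 44 and 47 reads in control and 49, 59 and 68 reads in TGF-β1-treated samples. The groups did not overlap in raw pileup, but they did per 1000000 reads, with 4.36, 4.68 and 4.09 in control and 3.84, 4.67 and 5.12 after TGF-β1, and in fold enrichment, with means of 10.7 ± 0.467 and 10.5 ± 1.69 (SD, n = 3). Its log2 fold change was 0.14 ± 0.16 (SE). The reads in its 10 kb overlap those around exon 5. They were 10.8 to 11.9 per 1000000 in control and 12.2 to 13.1 per 1000000 after TGF-β1, without overlap between the groups. These counts include the reads of the peak itself, which were not taken off here. The share of all regions apart by this measure was not counted. Over the 4 regions with peaks in all samples, raw pileup was separate between the groups, with TGF-β1 higher, in 2, beside 14.6% of all such regions, and pileup per 1000000 reads in 1, at exon 5, beside 1.97%.

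The region between Ugt1a6b and Ugt1a6a, chr1:90015417-90016143, began 11043 bp past the first exon of Ugt1a6b and was the longest of the 10. Its pileup was 48, 38 and 57 reads in control and 53, 51 and 60 reads after TGF-β1, and its fold enrichment of 13.1 to 15.4 was the highest of the 4 in every sample. The groups overlapped in pileup and in pileup per 1000000, and the log2 fold change was -0.01 ± 0.16 (SE). The region between Ugt1a5 and Ugt1a2, chr1:90073173-90073566, had 16, 12 and 19 reads in control and 17, 16 and 21 reads after TGF-β1, likewise with overlap, and a log2 fold change of -0.01 ± 0.21 (SE). By mean pileup, the regions upstream of Ugt1a1 (52 reads) and between Ugt1a6b and Ugt1a6a (51.2 reads) lay above 96.8% and 96.5% of all regions with peaks in every sample, whose median was 26.5 reads, the exon 5 region (39.5 reads) above 87.8%, and the one between Ugt1a5 and Ugt1a2 (16.8 reads) above 3.68%. The cluster thus held strong and weak regions side by side, and a log2 fold change away from 0 by more than its SE was seen at exon 5 alone, which was the value it was selected on.

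**Figure D4:**
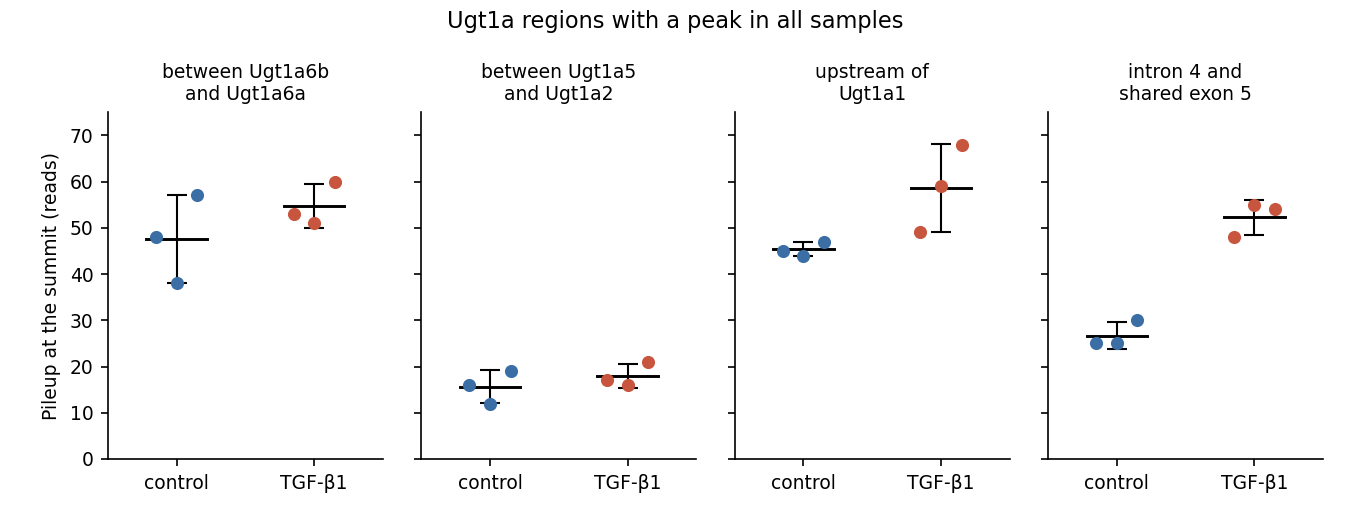
Pileup at the summit in reads for the 4 regions of the cluster with a peak in every sample, by group. Points are samples, horizontal bars the mean and error bars the SD of 3; the groups are apart at the region upstream of Ugt1a1 (44 to 47 against 49 to 68 reads) and at shared exon 5 (25 to 30 against 48 to 55 reads), and overlap at the other 2.

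The remaining 6 regions had peaks in 1 to 5 samples, with pileups of 10 to 25 reads, where the lowest pileup called anywhere was 8 reads in control samples and 9 or 10 after TGF-β1. The region just past the first exon of Ugt1a8 was called in 5 samples (10 to 22 reads). The one past the first exon of Ugt1a7c was called in 4 (14 to 17 reads), and another past that of Ugt1a6b in 3 (21 to 25 reads). The region between the first exons of Ugt1a6a and Ugt1a5 was called in TGF-β1 replicates 1 and 2 only, each at 15 reads. One region, chr1:90101556-90101977, lay within Dnajb3, a gene for a co-chaperone of the DnaJ family on the opposite strand between the first exons of Ugt1a2 and Ugt1a1. It had 19 and 14 reads in control replicates 1 and 2 and 20 reads in TGF-β1 replicate 3. It was the most CpG-dense of the 10, with 4.98 sites per 100 bp. None of these regions had a peak in all samples of one group and in no sample of the other. The share of all regions with that pattern was not counted, so its absence here is not shown to be unusual.

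Over the whole window of 1132 CpG sites, 5.04% to 6.80% lay under a peak, against 4.43% to 5.94% of the 1471973 sites of chromosome 1. The window was above the chromosome in control replicates 1 and 2 and TGF-β1 replicate 3, and below it in the other 3 samples, while its CpG density was 0.61 per 100 bp against 0.77.

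Other UDP-glycosyltransferases and the other steps of glucuronidation were looked at through 32 genes, of which 31 were found in the annotation by symbol. The steps were covered by the suppliers of UDP-glucuronic acid (Ugdh and Ugp2), its transporter Slc35d1, the deconjugating enzyme Gusb, exporters and transcriptional regulators. Of the 31 genes, 14 had 45 regions with a peak in all samples within 2 kb of the gene, 24 of them in Abcc4, which exports glucuronides and other organic anions from the cell. In limma over all 41744 regions, 0 of the 45 had a Benjamini-Hochberg adjusted p below 0.05, as did 0 of all regions (0%), where the smallest adjusted p was 0.677. At an unadjusted p below 0.05 there was 1 of 45 (2.22%, lower after TGF-β1), beside 4.18% of all regions, 818 higher and 926 lower. The median log2 fold change of the list was 0.01, beside -0.0047 over all regions. The 3 regions with the smallest p all lay in Abcc4. At chr14:119051853-119052333 pileup was 25, 30 and 35 reads in control and 25, 20 and 30 reads after TGF-β1, with a log2 fold change of -0.49 ± 0.21 (SE, limma, adjusted p = 0.999). At chr14:118952161-118952678 the log2 fold change was 0.34 ± 0.17 (SE, limma, adjusted p = 0.999), and at chr14:119024148-119024740 it was -0.35 ± 0.19 (SE, limma, adjusted p = 0.999), so that regions of one gene had values of both signs.

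The family of Ugt2 genes, whose members glucuronidate steroids and bile acids, was listed with 10 genes, 9 of them annotated, and held 3 regions in all, in Ugt2b1, Ugt2b5 and Ugt2b38, none with a peak in every sample. Of all regions of the series 24.5% had such a peak, so none among 3 is not shown to be particular to this family. Of the regulators, Nfe2l2, which drives antioxidant genes, had peaks in all samples in 3 of its 3 regions. Ppara, a receptor for fatty acids, had them in 3 of 10, Ahr in 1 of 6 and Hnf4a in 1 of 4. Arnt with 9 regions, Nr1i2 and Nr1i3 with 4 each, and Ahrr and Keap1 with 2 each had none. These counts are small beside a share of 24.5% over all regions, and whether the regulators differ was not tested. None of the regulators' regions with peaks in all samples had an unadjusted limma p below 0.05.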

How the data were processed

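Peak lists of 6 MeDIP-seq samples were analysed. Per the paper's methods, the labels and the file headers, the authors aligned reads to mm9 with BWA, kept uniquely mapped reads, counted reads with the same start once, and called peaks in each sample separately with MACS2 (2.1.0.20150731, q cutoff 0.01, and no input). Pileup as deposited is a signal without scaling to depth. Fold enrichment as deposited equals the ratio of pileup plus 1 to local background plus 1, from which local background was recovered. Deposited p- and q-values are −log10 values, used only for a stricter threshold. Regions with a peak in all 6 samples were fitted with limma 3.58.1 (R 4.3.3) on log2 of the highest pileup, centred on each sample's median, with Benjamini-Hochberg adjustment over all regions. The fit was tested on simulated data. CpG sites and 50-base uniqueness were computed in Python 3.11.15 from NCBIM37 with GENCODE vM1, and joining was checked with bedtools 2.31.1. Groups came from the labels. The genes, the glucuronidation list and the rules for naming regions (every region on an exon, within 2 kb upstream or in all samples, and of the list the 3 with the smallest p) were chosen with earlier results of these data known. The read-count test of the paper was not repeated, since reads were not analysed here. Some sequences and 1 gene of the list are not reported here. Alternatives were a −log10 q or a fold enrichment of at least 5, shares of bases, whole exons, no flank, other scalings, joining up to 200 bp, regions in at least 3 samples, omission of single samples, and a block for the replicate number.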

Additional observations from a re-analysis of the deposited data

How the results depend on the processing

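Including exon 5, the exon of the region that selected the cluster, turned the difference of shared from first exons to 32.0 points and that from all coding exons to 23.8 points. The selected region had to have a peak in every sample, so the exact sign-flip p of 0.0313 for each was set by the selection and is no support. Against all coding exons, shared exons 2 to 4 had the same smallest p in the opposite direction. No direction independent of exon 5 follows from these values. Without control replicate 1, and at a fold enrichment of at least 5, the difference of shared exons 2 to 4 from the first exons was 0. Without each sample in turn, shared exons 2 to 4 differed from all coding exons by -10.3 to -9.06 points, where 5 samples allow no exact sign-flip p below 0.0625. At a fold enrichment of at least 5 the first exons differed from all first coding exons by -5.23 points, where the first-exon share was 0 in every sample and the exact sign-flip p of 0.0313 is fixed at its minimum. With whole exons this difference was -3.05 points (exact sign-flip p = 0.188), and without each sample in turn -6.65 to -4.21 points (exact sign-flip p = 0.0625 to 0.125). The log2 fold change at exon 5 was 0.33 from fold enrichment, and 0.68 to 0.81 without each sample in turn. Regions of the glucuronidation list at an unadjusted p below 0.05 numbered 1, against 3 per 1000000 reads, 2 from fold enrichment, 5 of 106 among regions called in at least 3 samples, and 0 to 3 without each sample in turn (0 without control replicate 2 or TGF-β1 replicate 2). Over all regions, scaling per 1000000 reads gave 212 higher and 2387 lower at an unadjusted p below 0.05, in place of 818 and 926, and regions in at least 3 samples gave 3997 of 98681. At an adjusted p below 0.05 limma called 1 region from fold enrichment and 0 under the other alternatives.

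Deviations of same-numbered control and TGF-β1 samples had correlations from -0.13 to 0.04, beside -0.12 to 0.17 for different numbers. The numbers were therefore not taken to pair the samples. With the replicate number as a block, the shared exons differed from all coding exons by -9.53 points, where 3 pairs allow no p below 0.25, 1533 in place of 1744 regions had an unadjusted p below 0.05, and no other call changed. The count of 4 cluster regions called in every sample was the same under each alternative run. Depth limits what a missing peak means, since a pileup under 8 to 10 reads was never called.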

Other observations

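At the edge of the window the next peak on the downstream side lay 916 bp beyond the limit of 10 kb, within Heatr7b1, with 33 reads in TGF-β1 replicate 3 and a region called in 5 samples. On the upstream side the next peak lay 29499 bp beyond it. Neither flank of the cluster held a peak. Ugt1a5 and Ugt1a8, annotated in the cluster and not among the 7 genes, had no peak over their first exons in any sample, with 13 and 12 CpG sites.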
